A study of Marchantia polymorpha with 2 samples.

Results

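The core auxin signalling genes of the liverwort Marchantia polymorpha are 6 genes, MpTIR1, MpIAA, MpTPL, MpARF1, MpARF2 and MpARF3, taken by their gene model identifiers from the 16280 genes with values. Each of the 6 identifiers matched 1 row. The names come from an assignment of identifiers to gene names made for this work, and the deposited files do not hold them. All 6 names are symbols among the 18391 genes of a reference annotation (MpTak2_v7.1), but that annotation does not pair them with the deposited identifiers, so the assignment was not checked against sequence.

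RNA was sequenced from the gametophytic thallus, the flat haploid body of the plant. Both groups carried the same 2 transgenes, proEF1:MpKNOX2, which expresses the homeodomain gene MpKNOX2 all the time, and proEF1:XVE>>MpBELL1, in which an estrogen-activated transcription factor switches on its partner MpBELL1. Plants grown from gemmae for 10 days at 23°C in 24 h light were moved to mock medium or to medium with 5 µM 17-β-estradiol and frozen after 72 h. There was 1 mock library and 1 estradiol library, so the spread among plants given the same treatment is unknown and no p-value was computed. Whether the plants came from 1 transgenic line or several, and how many were pooled, is not given in the sources used here. Both promoters were EF1 promoters. The mock plants carried the MpKNOX2 transgene too, so neither library stands for a plant without transgenes. Plants without the transgenes on estradiol, and the 0 h samples, were not analysed here. An effect of estradiol itself and an effect of MpBELL1 cannot be told apart. The levels of MpBELL1, MpKNOX2 and thallus marker genes were not analysed here, since no table used here pairs their names with the deposited identifiers.

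Auxin signalling in land plants works by removing a repressor. Auxin joins the F-box receptor TIR1 to Aux/IAA proteins, which are then degraded. Aux/IAA proteins otherwise hold the co-repressor TOPLESS (TPL) on auxin response factors (ARFs), the transcription factors that bind auxin-responsive genes. Marchantia is known for its small set of these parts. Its MpARF1 belongs to class A, the activators, its MpARF2 to class B, repressors that compete with class A for the same DNA sites, and its MpARF3 to class C, a separate class whose gene is a microRNA target. In the thallus the pathway is known for its part in growth, patterning and the formation of gemma cups.

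The 6 genes differed between the libraries to very unequal degrees. MpARF3 and MpARF1 had far lower values in the estradiol library, at 16.3% and 26.1% of their mock values, and MpIAA was at 48.3%. MpTIR1 was at 66.5%, MpARF2 at 87.3% and MpTPL at 104%. The class A activator gene MpARF1 was thus much lower while the class B repressor gene MpARF2 differed little, and MpARF2 held 79.5% of the reads of the 3 ARF genes in the estradiol library against 49.5% in mock.

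The libraries held 13103037 reads in genes for estradiol and 15495357 for mock. Each deposited value is a normalized count, equal to a whole number of reads times a factor for the library, so that 1 read was worth 0.995 in estradiol and 1.01 in mock. The 6 genes had from 293 to 10331 reads per library. In bulk tissue, fewer cells of a type and less RNA per cell cannot be told apart. The files hold no transcript lengths, so values are compared between libraries for each gene and never as levels between genes.

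**Figure D1:**
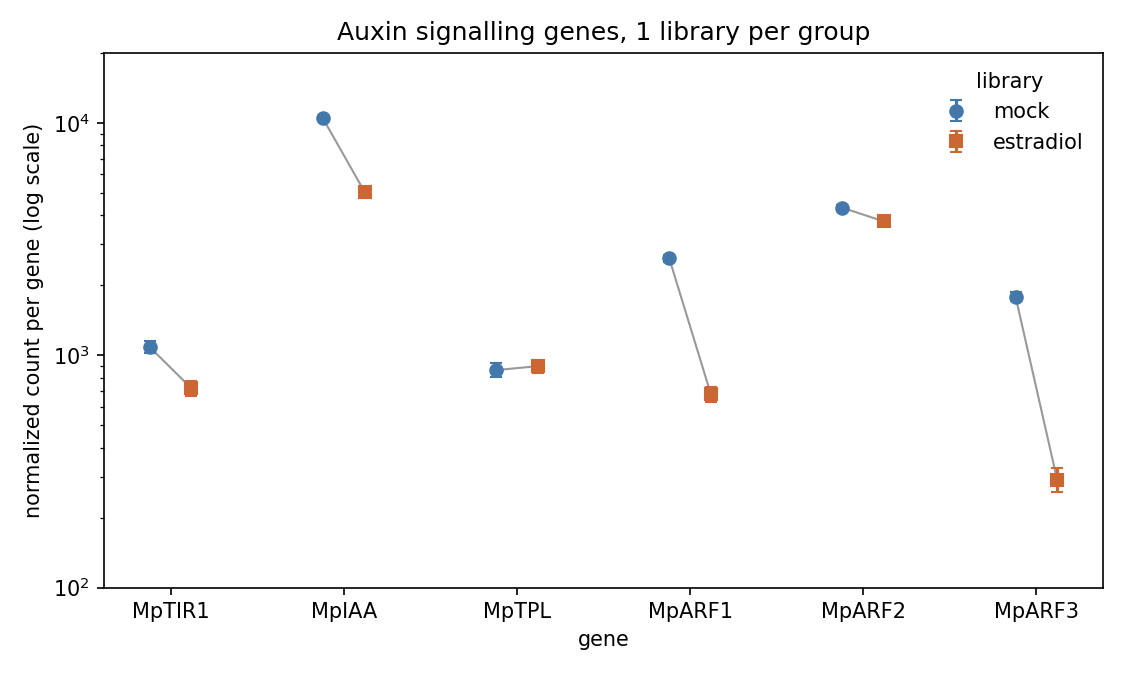
Normalized count of each of the 6 genes (log axis) in the mock library (circles) and the estradiol library (squares), with bars for exact Poisson 95% intervals of the reads. MpARF3 runs from 1786 in mock to 292 in estradiol and MpARF1 from 2610.1 to 681, while the points of MpTPL, 863 and 898, lie almost level.

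The receptor gene MpTIR1 (Mapoly0035s0062.1.v3.1) had a normalized count of 1084 in mock and 720.4 in estradiol, from 1071 and 724 reads. The estradiol library was the lower. Its value was 66.5% of mock, with an exact (Clopper-Pearson) 95% counting interval of 60.4% to 73.1%. That interval, like the others given here, covers counting error only, because 1 library per group does not show the spread among plants. Reads that carry no molecular identifiers cannot be taken as independent molecules, so the interval may be too narrow even for counting error. On the log2 scale with a pseudocount of 10 the ratio of estradiol to mock was -0.58, which did not reach 2-fold.

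The repressor gene MpIAA (Mapoly0034s0017.1.v3.1), the Aux/IAA gene of the set, had a normalized count of 10456 in mock and 5053 in estradiol, from 10331 and 5078 reads. The estradiol value was 48.3% of mock (95% counting interval 46.7% to 49.98%). MpIAA therefore lay just past the 2-fold threshold, with a log2 ratio of -1.05. Its place there depended on how the libraries were scaled. With the libraries brought to equal totals, the estradiol value was 58.1% of mock (56.2% to 60.1%) and the log2 ratio -0.78.

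The co-repressor gene MpTPL (Mapoly0051s0007.1.v3.1) had a normalized count of 863 in mock and 898 in estradiol, from 853 and 902 reads. No difference was detectable at this depth, the estradiol value being 104% of mock with a counting interval of 94.6% to 114%. Under equal totals it was 125% of mock (114% to 137%), a log2 ratio of 0.32.

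Among the transcription factors, the activator gene MpARF1 (Mapoly0019s0045.1.v3.1) had a normalized count of 2610.1 in mock and 681 in estradiol, from 2579 and 684 reads. The estradiol value was 26.1% of mock (23.9% to 28.4%), so the mock value was 3.83 times the estradiol value (3.52 to 4.18). The log2 ratio was -1.92 as deposited and -1.66 under equal totals, past 2-fold under both.

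The repressor gene MpARF2 (Mapoly0011s0167.1.v3.1) had a normalized count of 4313 in mock and 3766 in estradiol, from 4262 and 3785 reads. Its estradiol value was 87.3% of mock (83.6% to 91.2%), a log2 ratio of -0.20. The direction of this small difference turned with the scaling: under equal totals the estradiol value was 105% of mock (100.5% to 110%), a log2 ratio of 0.071.

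The class C gene MpARF3 (Mapoly0043s0046.1.v3.1) differed most of the 6. Its normalized count was 1786 in mock and 292 in estradiol, from 1765 and 293 reads. The estradiol value was 16.3% of mock (14.4% to 18.5%), and the mock value was 6.13 times the estradiol value (5.41 to 6.96). The log2 ratio was -2.57 as deposited and -2.32 under equal totals, past 4-fold under both.

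**Figure D2:**
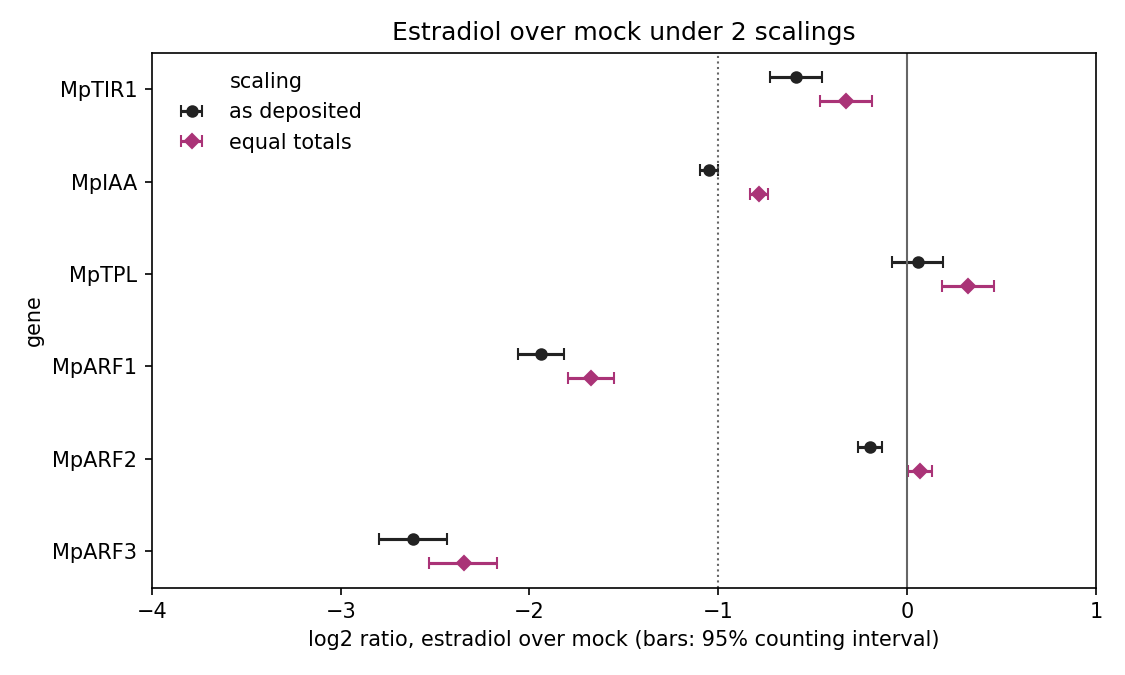
Log2 ratio of estradiol over mock for each gene without a pseudocount, as deposited (circles) and with both libraries at equal totals (diamonds), with 95% counting intervals as bars, a solid line at no difference and a dotted line at 2-fold lower. MpARF3 and MpARF1 lie left of the dotted line under both scalings, MpIAA crosses it, and MpARF2 moves across the solid line.

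Of the 6 genes, 3 (MpARF3, MpARF1 and MpIAA) were lower in estradiol by at least 2-fold and 0 were higher by that much. All 6 passed the filter, which kept genes whose normalized counts averaged at least 10. The background is wide in these libraries: 18.2% of the 12854 genes past the filter were at least 2-fold lower and 15% at least 2-fold higher. In the abundance range that holds all 6 genes, means of 500 to 10000 with 5248 genes, the shares were 17.2% and 11.8%. With 6 genes and 1 library per group, the count of 3 is a description and no test of the set. The counting interval lay wholly beyond 2-fold lower for the same 3 genes, against 14.9% of all genes. At 1.5-fold the count was again 3, against 27.1%, and at 4-fold it was 1, MpARF3, against 6.39%. MpTIR1 just missed 1.5-fold with the pseudocount of 10 and was just past it without. Under equal totals 2 of the 6 genes stayed past 2-fold lower, MpARF1 and MpARF3, against 14.5% of all genes, and 0 were 2-fold higher, against 19.6%.

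The counting interval lay wholly below the mock value for 5 of the 6 genes and spanned it for MpTPL. Of all genes past the filter, 40.3% had an interval wholly below mock, and a further 37.0% had one wholly above. The median log2 ratio of the 6 genes was -0.82, and that of all genes past the filter -0.03. Under equal totals the interval lay wholly below mock for 4 of the 6 genes, against 30.2% of all genes, and wholly above it for 2, MpARF2 and MpTPL, against 49.3%. The medians were then -0.55 and 0.22.

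The place of each gene among the 12854 was spread out. Of these, 357 genes had a lower log2 ratio than MpARF3 and 897 a lower one than MpARF1. For MpIAA the number was 2218 and for MpTIR1 3488. MpARF2 had 5386 genes below it and MpTPL 6968, near the middle of the distribution.

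**Figure D3:**
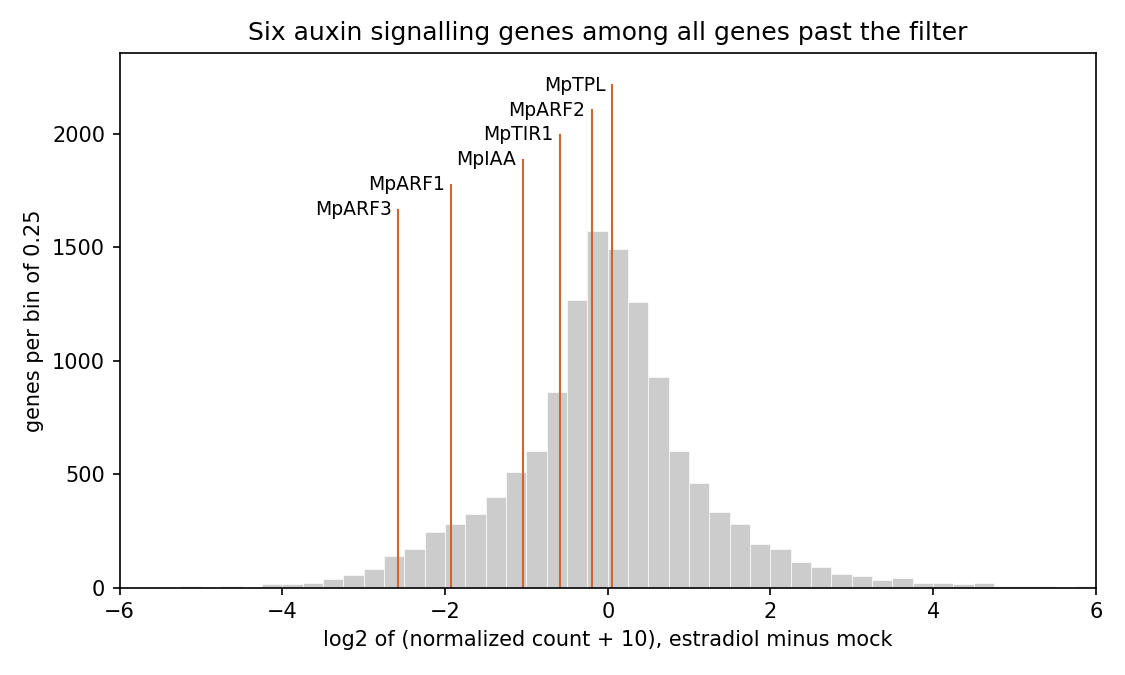
Number of genes per bin of 0.25 in the log2 ratio of estradiol to mock with a pseudocount of 10, over 12854 genes, with vertical lines at the 6 auxin signalling genes. MpARF3 (-2.57) and MpARF1 (-1.92) stand in the left flank, and MpARF2 (-0.20) and MpTPL (0.06) near the peak.

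Comparing the genes with each other within each library removes the scaling factor. For all 15 pairs of the 6 genes, the 95% counting interval of the difference of the log2 ratios did not hold 0. These 15 differences come from only 6 ratios and 1 library per group, and the same count over pairs of other genes was not computed. For single genes past the filter, the counting interval lay wholly below mock for 40.3% and wholly above for 37.0%. The pair of class A and class B was neither the widest nor the narrowest of the 15. Over all genes past the filter, log2 ratios with a pseudocount of 10 ran from -1.61 at the 10th percentile to 1.37 at the 90th percentile. The log2 ratio of MpARF1 minus that of MpARF2 was -1.74 (-1.88 to -1.61), so the mock-to-estradiol ratio of MpARF1 was 3.35 times that of MpARF2 (3.04 to 3.69). As a share of the reads of MpARF1 plus MpARF2, MpARF1 took 37.7% in mock (exact 95% binomial interval 36.5% to 38.9%) and 15.3% in estradiol (14.3% to 16.4%). These shares count reads and are not corrected for transcript length, so the change between the libraries can be read and the shares themselves cannot be taken as molecule numbers.

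Over the reads of the 3 ARF genes, MpARF1 went from 29.97% in mock (29.0% to 30.9%) to 14.4% in estradiol (13.4% to 15.4%). MpARF3 went from 20.5% (19.7% to 21.4%) to 6.15% (5.49% to 6.87%). MpARF2 took the rest, 49.5% in mock (48.5% to 50.6%) and 79.5% in estradiol (78.3% to 80.6%). The summed normalized count of the 3 genes was 8710 in mock and 4738 in estradiol, so the larger share of MpARF2 came with a smaller total and not with a higher value of MpARF2 itself as deposited.

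MpARF1 and MpARF3, the pair of genes that were lowest in estradiol, did not differ by the same amount. The log2 ratio of MpARF1 minus that of MpARF3 was 0.68 (0.46 to 0.90), MpARF3 being the lower. Of the reads of both, MpARF3 held 40.6% in mock (39.2% to 42.1%) and 29.99% in estradiol (27.1% to 33.0%).

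The genes of perception and repression differed from each other too. The log2 ratio of MpIAA, the repressor, minus that of its receptor MpTIR1 was -0.46 (-0.61 to -0.31). The co-repressor MpTPL stood above both, with a difference of -1.11 for MpIAA minus MpTPL (-1.25 to -0.96) and -0.65 for MpTIR1 minus MpTPL (-0.84 to -0.45). Set against the ARF genes, MpIAA lay between MpARF1 and MpARF2. The differences were -0.89 for MpARF1 minus MpIAA (-1.02 to -0.76) and 0.85 for MpARF2 minus MpIAA (0.77 to 0.93). MpARF3 minus MpIAA was -1.57 (-1.76 to -1.38). The smallest gap of the 15 was that of MpARF2 minus MpTPL, at -0.25 (-0.40 to -0.10). The widest was that of MpARF3 minus MpTPL, at -2.67 (-2.90 to -2.44).

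**Figure D4:**
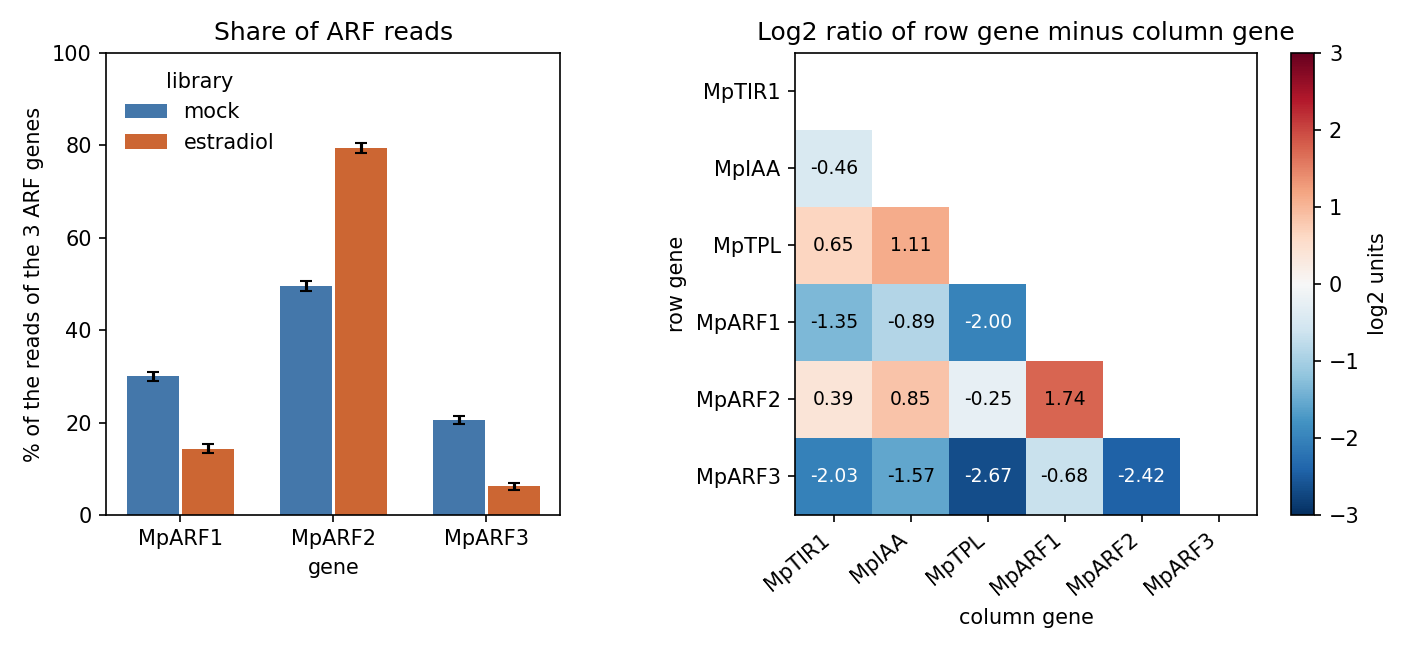
Left, percent of the reads of the 3 ARF genes taken by each gene in the mock and estradiol libraries, with exact 95% binomial intervals. Right, the log2 ratio (estradiol over mock, no pseudocount) of the row gene minus that of the column gene for all 15 pairs. The MpARF2 bar goes from 49.5% to 79.5%, and the row of MpARF3 is negative against each other gene.

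The reads of the 6 genes together made up 0.135% of the mock library and 0.0875% of the estradiol library. MpIAA alone supplied 49.5% of them in mock (48.8% to 50.2%) and 44.3% in estradiol (43.4% to 45.2%). MpTPL went from 4.09% (3.82% to 4.37%) to 7.87% (7.38% to 8.37%) and MpTIR1 from 5.13% (4.84% to 5.44%) to 6.31% (5.88% to 6.78%).

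In the authors' deposited table, MpARF3, MpARF1 and MpIAA carried the tag down, as did 13.4% of all 16280 genes, and 0 of the 6 carried the tag up, against 10.3%. The probability score in the authors' deposited table was 0.995 for MpARF3, 0.965 for MpARF1 and 0.936 for MpIAA. For the untagged genes, the authors' deposited table gave 0.803 for MpTIR1, 0.551 for MpARF2 and 0.281 for MpTPL. Genes at 0.9 or more were tagged. The sources used here do not say how that score was made, and it is not read as a p-value. By that score in the authors' deposited table, 441 genes ranked above MpARF3, 1488 above MpARF1 and 3112 above MpIAA. It was made from the same pair of libraries and is no independent evidence.

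The genes with the next lower and next higher number on the same scaffold were looked up for each of the 6, on the assumption, not tested, that the numbers follow the order along the scaffold. Of 12 such neighbours, 11 were in the table and 9 passed the filter. At least 2-fold lower in estradiol were 2 of the 9, against the 18.2% of all genes, and 0 were higher. These 2 were the gene numbered directly after MpARF1, with 196 in mock and 53.7 in estradiol (log2 ratio -1.69), and the gene numbered directly after MpARF3, with 770.2 and 146 (-2.32). The remaining 7, which include both neighbours of MpTIR1 and of MpTPL, lay within 2-fold. The highest log2 ratio was 0.65, for the gene numbered directly before MpARF3, with 414 in mock and 657 in estradiol. Whether reads were counted by strand is not given in the sources used here. Sharing of reads between these neighbours and MpARF1 or MpARF3 was not tested.

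Other genes of auxin synthesis, transport and response were not analysed here. Of 16 such names listed, 10 are symbols in the reference table, but 0 deposited identifiers were found in it.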

How the data were processed

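The tools listed are FastQC, STAR and HTSeq, per the submitters' processing notes. Versions, settings, the build, the strand and how values were normalized are not given in the sources used here. What the authors deposited is a signal per gene, never negative, that they call normalized counts. They also deposited a comparison table that holds, per the file headers, a log2 ratio, a difference, a ranking score and a probability from 0 to 1. Values were whole multiples of 1 step per library to within 3.63e-05 reads, which gave the reads.

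Ratios were log2 of (normalized count + 10), which understates changes of low genes, over genes with a mean of 10 or more, and a difference of 2-fold was counted. Exact 95% intervals of ratios are conditional on the reads; differences between pairs used the conditional odds ratio. On simulated data over 16280 genes with this comparison's levels, 200 of 200 genes changed 4-fold were recovered, all at simulated means of at least 50. Of 12659 unchanged genes 1 was called, and 95.2% of ratio intervals and 97.0% of pair intervals held the true value. The simulated reads were Poisson draws around the mean of both libraries, with no spread among plants and no scaling error. These rates therefore check the computation under counting error and do not give the rate of false calls in the real libraries. The named genes are the 6 given by the rule. They and the lists were chosen with earlier results of these data known. Alternatives were other pseudocounts, filters, fold thresholds and scalings, the counting interval and the authors' tags. The trimmed mean of log ratios (30% of ratios and 5% of abundances trimmed at each end) was computed directly from the reads. Python 3.11.15, NumPy 2.4.6, pandas 2.3.3, SciPy 1.17.1 and Matplotlib 3.10.9 were used.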

Additional observations from a re-analysis of the deposited data

How the results depend on the processing

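No paired analysis was possible because the groups hold 1 library each, and for that reason no replicate could be left out. Equal totals, which adds 0.27 to the log2 ratio of all genes before the pseudocount, moved each gene beyond its counting interval: MpARF1 to -1.66, MpARF2 to 0.071, MpARF3 to -2.32, MpIAA to -0.78, MpTIR1 to -0.32 and MpTPL to 0.32. MpARF2 thereby changed sign, and MpIAA left the 2-fold group, so that 2 of the 6 genes were lower. The counting interval then lay wholly below mock for 4 genes in place of 5 and wholly above for 2 in place of 0, a count added after seeing the data. A pseudocount of 50 moved MpARF3 to -2.43, and the other pseudocounts and scalings left the 6 ratios within their counting intervals. The trimmed mean shifted log2 ratios by only 2.36e-04 and the median of 0 by 0.0296. Both were thus close to the deposited scaling, and their likeness to it is no separate check. The count of 3 lower genes was 3 with the authors' tags and with the counting interval wholly beyond 2-fold (1917 of all 12854 genes). It was also 3 at a 1.5-fold threshold (3479 of all genes) and 1 at a 4-fold threshold. MpTIR1 just missed 1.5-fold at -0.58 with the pseudocount of 10. Without the pseudocount MpTIR1 was just past 1.5-fold, its mock value being 1.505 times its estradiol value. Over all genes, the 1930 higher genes became 1257 with a pseudocount of 50, 3129 at 1.5-fold, 667 at 4-fold and 1210 with a mean of 100 or more, and the 2337 lower genes became 821 at 4-fold. Equal totals gave 1858 lower and 2520 higher genes, turning the balance. Within a mean of 500 to 10000, a range chosen after seeing the data, 905 were lower and 619 higher, as fewer genes were tested. The 15 pair differences stayed within their intervals with a pseudocount of 10, and the MpARF1 share was the same from whole reads.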
